A study of Macaca nemestrina with 58 samples.

Results

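Among the 12 vaginal biopsies taken from pig-tailed macaques during oral contraceptive treatment, 5 carry the mark (A-) in their labels and 7 do not. The 12 arrays were split by that mark alone, and every array was compared with its own animal's mean before treatment. The sources used here do not explain the mark, and it serves below only as a label. The 12 arrays came from 6 of the 15 animals and belong to a series of 58 arrays, and 11 baseline samples of the same 6 animals served as the reference.

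The series followed Macaca nemestrina through hormonal contraception, with a pinch biopsy of the vaginal wall hybridised to an Affymetrix rhesus macaque expression array. One arm received the injected progestin DMPA, depot medroxyprogesterone acetate, and is not described here. The other arm was labelled LNG, for which the design text names a combined oral contraceptive sampled 5 weeks after the first dose. Each of its 6 animals was sampled at times labelled 5th and 7th, with no unit given.

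The 5 labelled arrays came from animal BB4870 at both times and from BB269, BB173 and BB537 at the 7th time. The 7 unlabelled arrays came from BB967 and BB4800 at both times and from BB173, BB269 and BB537 at the 5th time. Animals BB967, BB269 and BB4870 had the dose label High, and BB173, BB537 and BB4800 the dose label Low. The mark therefore overlapped with time: 4 of the 5 labelled arrays were of the 7th time and 5 of the 7 unlabelled arrays of the 5th. It changed within 3 animals, was absent at both times in 2 and present at both times in 1. Baseline biopsies were taken in named phases of the menstrual cycle, 2 per animal except for BB537. The 2 arrays of BB537, both of the late follicular phase and 1 of them marked as a duplicate, were averaged to 1 sample. No untreated animal was sampled at the later times, so in any change from baseline the drug, the passing of time and earlier biopsies cannot be told apart.

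The vaginal wall is lined by a stratified squamous epithelium whose cells move from a dividing basal layer upward, fill with keratins and, near the surface, build a cornified envelope of cross-linked proteins before they are shed. Estrogen drives this thickening and maturation, and progestins oppose it. Beneath the epithelium lie connective tissue, vessels, immune cells and smooth muscle, which a pinch biopsy holds in varying amounts. In a biopsy, fewer cells of a type and less RNA per cell cannot be told apart.

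The tissue label was checked against defining markers. At baseline the squamous keratins KRT13 and KRT4 had mean log2 levels of 14 and 13.6, and TP63, the regulator of squamous identity, had 12. By their mean over all samples, KRT13 and KRT4 were at the 99.9th and 99.8th percentile of probe sets. Markers of columnar epithelium were much dimmer, with KRT18 at 5.87 and PIGR at 6.84. The stromal genes DCN, at 11.5, and COL1A1, at 11.3, showed that connective tissue was part of the biopsies. Of the T cell markers CD3D, CD3E and CD2 none is paired with a probe set here, nor are ACTA2 and DES of smooth muscle. The neutrophil marker FPR1 was under the brightness filter. On treated arrays the squamous markers reached below their baseline range. The lowest treated levels were 5.79 for TP63, 10.4 for KRT13 and 9 for KRT4, against lowest baseline levels of 11.8, 13.6 and 13. Their highest treated levels were 12.3, 14.2 and 13.9. MYH11, a smooth muscle gene, reached 13.2 on treated arrays and 11.6 at baseline. The squamous label checked at baseline therefore does not hold equally for every treated array. Of the 12 treated arrays, the unlabelled 5th array of BB4800 had the lowest mean change over suprabasal squamous genes, at -4.48. It also had the highest over smooth muscle genes, at 4.66, and it belongs to the unlabelled set in the comparisons below.

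The arrays differed in how far they lay from their own baseline. Over 31624 probe sets, the number that differed from baseline by 2-fold or more was 301 (0.952%) on the labelled 5th array of BB4870 and 4385 (13.9%) on that animal's labelled 7th array. It was 1818, 1956 and 2975 on the labelled arrays of BB173, BB269 and BB537. Among the unlabelled arrays it ran from 1314 (4.16%) for BB269 at the 5th time to 7442 (23.5%) for BB4800 at the 5th time, and the 5 others lay between 2223 and 4055. Both the smallest and the second largest number thus belonged to labelled arrays of a single animal. Baseline samples of the same animal differed as well, by 2-fold or more at 1255 to 5524 probe sets, with the highest number in BB967.

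Set directly against each other, labelled and unlabelled arrays differed at no probe set past the threshold. The limma model, which held the animal as a block and adjusted p by Benjamini-Hochberg over 31624 probe sets, called 0 (0%), with a lowest adjusted p of 0.28. At an unadjusted p under 0.05 there were 2517, of which 1209 were higher and 1308 lower on labelled arrays. Counted by gene, on the brightest probe set of each, the split was less even, with 154 higher and 455 lower of 609. With array weights 4 probe sets passed, an unnamed one, 1 for AFDN and 2 for FOXP1, with the lowest adjusted p at 0.0151; AFDN was higher by 0.90 on labelled arrays and FOXP1 lower, at -0.64 and -0.75. Fitted differences come from the limma model, which also sets arrays of the same animal against each other. They need not equal the gap between the mean changes from baseline. The genes described next have the smallest p in either direction, and none of them passed.

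The uncharacterised gene LOC717443 had the smallest p. Its log2 change from baseline on the labelled arrays was -0.46 and -0.79 for BB4870 at the 5th and 7th times, -0.61 for BB269, -0.64 for BB173 and -0.42 for BB537. On unlabelled arrays it ran from -0.20 to 0.45, with a median of 0.04. Every labelled array lay below every unlabelled array for this gene, and the fitted difference was -0.67 ± 0.13 (SE, 5 against 7 arrays of 6 animals; limma adjusted p = 0.28). For TADA3, a subunit of histone acetyltransferase complexes, all labelled arrays also lay lower, from -0.74 to -0.16 against 0.01 to 0.41, with a fitted difference of -0.57 ± 0.13 (limma adjusted p = 0.601). A second probe set of TADA3 did not share this direction, at 0.08, and the same was true of PSMG2, a proteasome assembly factor, with -0.38 on its brightest probe set and 0.34 on the other.

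TNC, which encodes the matrix glycoprotein tenascin C, had the largest difference among the 10 genes that were lower on labelled arrays. Its change was 0.39 in BB173, 0.25 in BB537, -0.77 and -1.39 in BB4870 and -2.5 in BB269 on the labelled arrays. Unlabelled arrays ran from -0.10 to 1.79 with a median of 1.38. Of the 7 unlabelled arrays 6 lay above every labelled array, and the exception was BB967 at the 7th time. The fitted difference was -2.08 ± 0.47 (SE; limma adjusted p = 0.601). From the 5th to the 7th time TNC was lower in all 6 animals, by -1.40, -4.17 and -1.02 in BB173, BB269 and BB537, where the mark appeared, and by -0.06, -0.62 and -1.10 in BB4800, BB4870 and BB967, where it did not change.

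PTHLH, the gene of parathyroid hormone-related protein, was lower on labelled arrays by -1.53 ± 0.38 (limma adjusted p = 0.601). Its changes there lay between -1.02 and 0.21, against 0.01 to 2.31 on unlabelled arrays. Only the labelled 7th array of BB4870 overlapped with the unlabelled range, in which BB4800 at the 7th time was lowest. Other genes with small p and lower levels on labelled arrays were AVPI1 at -0.67, RAB33B, a small GTPase of the Golgi, at -0.62, RNF26, a ubiquitin ligase gene, at -0.42, ZNF331 at -0.55 and LNP1 at -0.80. For AVPI1, RAB33B and RNF26 the 2 sets of arrays did not overlap.

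In the other direction, FGFBP1, which encodes a carrier of fibroblast growth factors made by squamous epithelium, was higher on labelled arrays by 2.21 ± 0.63 (SE; limma adjusted p = 0.601). Its change was -0.04 in BB269, 0.58 in BB537, -0.04 and -0.71 in BB4870 and -1.97 in BB173 on labelled arrays. The unlabelled arrays ran from -4.72 to 0.01, with a median of -3.97. The sets overlapped, since the unlabelled 5th arrays of BB269, at 0.01, and BB537, at -1.43, lay above labelled BB173. LYPD2 had a difference of 1.68 ± 0.50, with labelled arrays from -1.71 to -0.11 and unlabelled arrays from -4.67 to -0.80.

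TUT7, which encodes a terminal uridylyltransferase acting on small RNAs, lay 0.56 ± 0.14 higher on labelled arrays, at -0.33 to 0.28 against -0.91 to -0.31, an overlap of labelled BB173 with the 5th array of BB967 alone. ADAM20, of the ADAM metalloprotease family, had a difference of 1.06 and GPR18, a receptor gene of lymphocytes, one of 0.87. ASIC4, of the acid-sensing ion channel family, differed by 1.02 on its brightest probe set and by 0.12 on another. Smaller values belonged to LRRC37A at 0.58, LOC722102 at 0.31, SLC6A3, the dopamine transporter gene, at 0.60 and LAG3, an inhibitory receptor of activated T cells, at 0.40. All 20 genes had a limma adjusted p of 0.28 or 0.601.

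**Figure D1:**
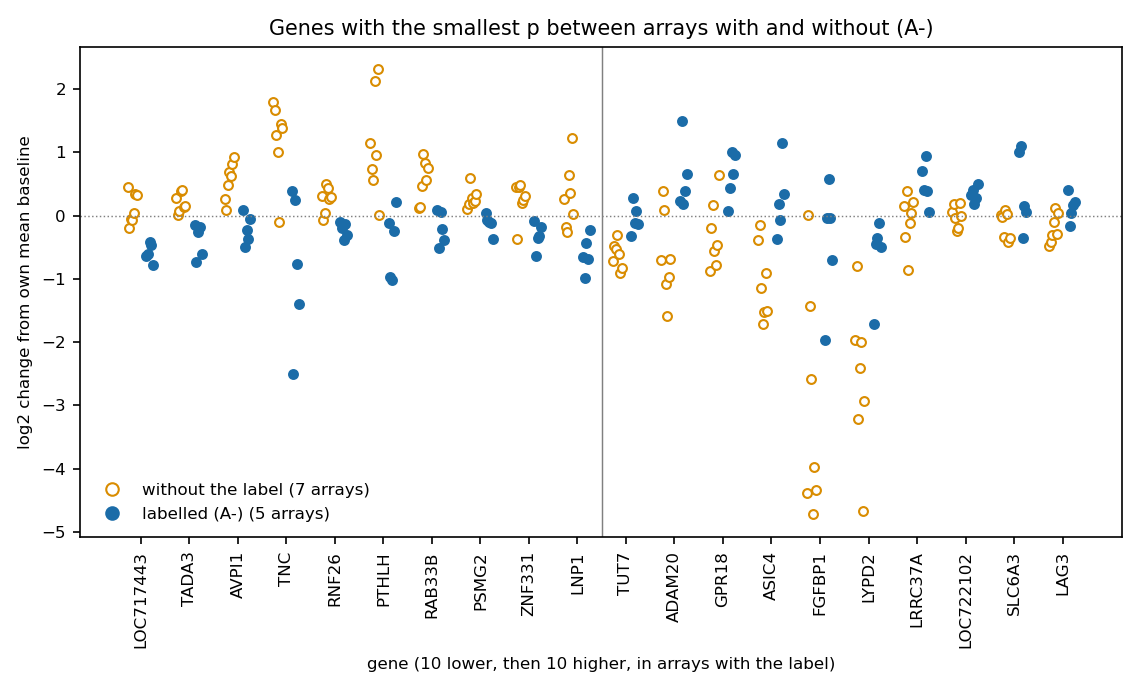
Log2 change from the own mean baseline (vertical axis) of the 20 genes with the smallest p between arrays with and without (A-), 10 lower and 10 higher (horizontal axis); open points are the 7 unlabelled arrays and filled points the 5 labelled arrays. LOC717443 and TADA3 show no overlap between the sets, while FGFBP1 and LYPD2 show a wide spread of unlabelled arrays, down to -4.72 and -4.67.

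Over all 11198 genes, each represented by its brightest probe set, all 5 labelled arrays lay below all 7 unlabelled arrays for 32 genes (0.286%) and above them for 5 (0.0447%). The 5 were SLC30A3, a zinc transporter gene, MCM8, a helicase of DNA repair, DNAAF1, which is needed to assemble ciliary motors, STK19 and MDFI, named after their values were seen. Their fitted differences were between 0.24 and 0.47. The gap between the sets was 0.05 or less for each of these 5 genes and at most 0.21 for the 32 others.

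Squamous genes mostly lay higher on labelled than on unlabelled arrays, but none passed the test, and animals with the same mark differed widely. The list of cornified envelope genes had 21 of 48 members measured after the filter, and its median difference between labelled and unlabelled arrays was 1.94, with all 21 values above 0 and 5 at an unadjusted p under 0.05. With the GAPDH measure of RNA quality as a covariate this median was 0.51, and with the actin measure 1.90. It was 1.07 without animal BB4870, 1.22 without BB4800 and 1.29 in animals of dose label High. Over all genes the median was -0.06. Proteases and protease inhibitors of the epithelium, with 24 of 36 members measured, had a median of 1.38 and 23 values above 0. Suprabasal genes, with 29 of 35 measured, had a median of 1.15 and 27 above 0. In each of the 3 lists limma called 0 members, with 5, 10 and 3 at an unadjusted p under 0.05. Without BB4800 the medians of the protease and suprabasal lists were 0.91 and 0.65.

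Array by array, the mean change of the 21 cornified envelope genes was 0.13 and -0.32 for BB4870 at the 5th and 7th times, 0.16 for BB269, -1.87 for BB537 and -3.82 for BB173, all labelled. On unlabelled arrays it was 0.03 for BB269, -3.78 for BB537 and -3.92 for BB173 at the 5th time, -1.65 and -3.07 for BB967 and -5.53 and -4.59 for BB4800. The sets overlapped in both directions: BB269 was near its baseline on an unlabelled and on a labelled array, and BB173 was far below baseline on both. Within the 3 animals whose mark changed, the 7th array minus the 5th was 0.11 in BB173, 0.13 in BB269 and 1.91 in BB537. In the others it was 0.94 in BB4800, -0.45 in BB4870 and -1.42 in BB967. BB537 alone among the 3 therefore had a sizeable difference between its unlabelled and its labelled array.

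The baseline of BB967 bears on these values. Its cornified envelope genes had a mean log2 level of 8.62 in the late luteal sample and 12.3 in the early follicular sample, a gap of 3.70, while the other animals with 2 baseline samples had gaps of 0.12 to 0.67. The changes of BB967 were measured from the mean of these 2 samples. Without the late luteal sample, limma again called 0 probe sets between labelled and unlabelled arrays.

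**Figure D2:**
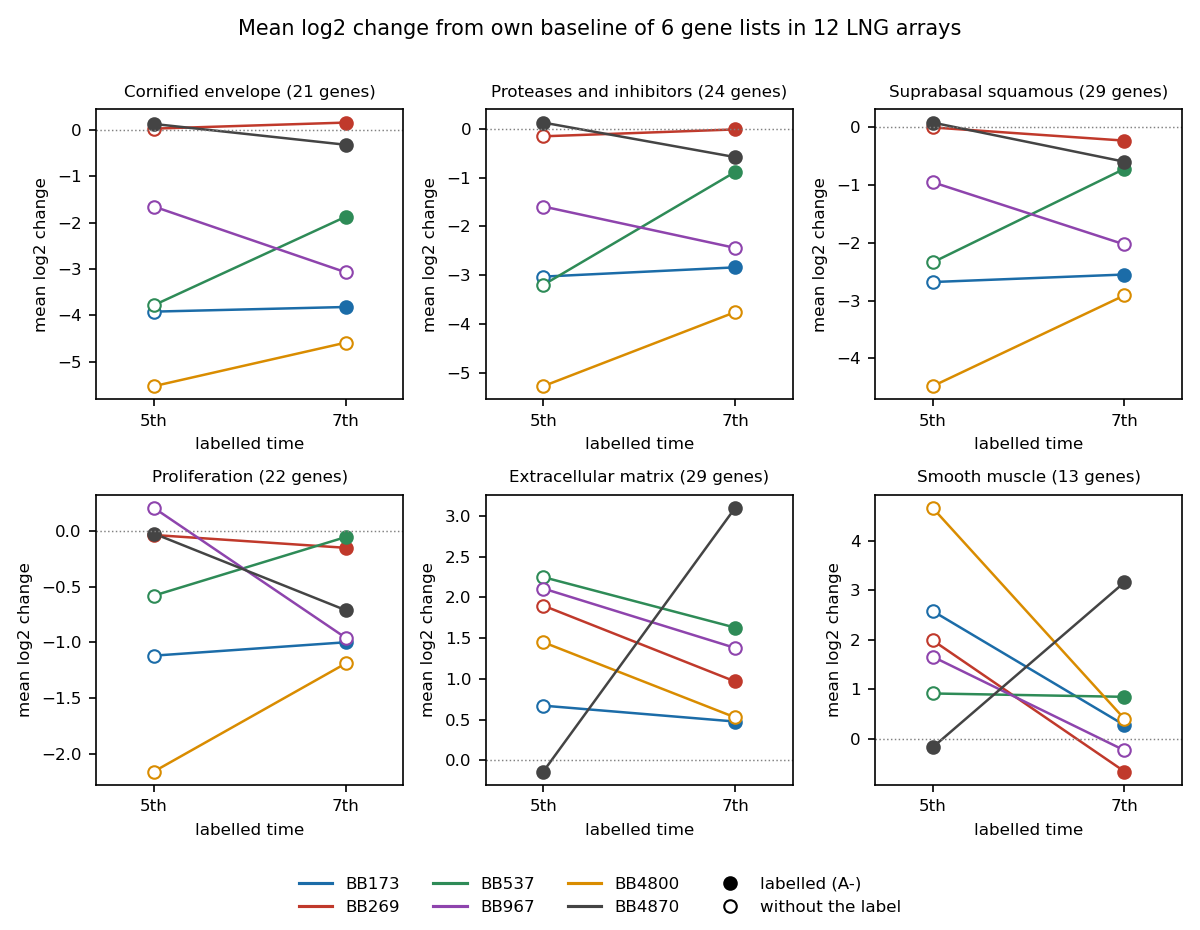
Mean log2 change from the own baseline (vertical axes) of 6 gene lists at the labelled times 5th and 7th (horizontal axes), with a line per animal, filled points for labelled and open points for unlabelled arrays. In the cornified envelope panel BB269 stays near 0, BB173 at -3.92 and -3.82 and BB537 moves from -3.78 to -1.87; the extracellular matrix and smooth muscle panels show the 7th array of BB4870 at 3.10 and 3.16.

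Single genes of the surface layers showed the same order of animals. CRNN, which encodes cornulin of the upper squamous layers, had changes of 0.12 and -0.33 in BB4870, -0.14 in BB269, -0.44 in BB537 and -8.68 in BB173 on labelled arrays. Its unlabelled arrays ran from -9.02 to 0.02 with a median of -7.57, and BB269 was the one near 0. The fitted difference was 3.16 ± 1.37 (SE; limma adjusted p = 0.607). TMPRSS11B, a surface serine protease gene, lay at 0.29, -0.31, -0.26, -0.40 and -9.70 in the same order of labelled arrays, and at -10.1 to -0.05 on unlabelled arrays. For BB537 these genes had been at -4.88 and -6.78 at the unlabelled 5th time.

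LORICRIN, a major structural component of the envelope in keratinising epithelium, did not follow CRNN in BB537. Its change was -8.29 on the unlabelled and -7.26 on the labelled array of that animal, while IVL, the gene of involucrin, moved from -5.18 to -1.34 and TGM1, the enzyme that cross-links the envelope, from -6.20 to -1.36. SPINK7, a protease inhibitor gene, moved from -8.21 to -1.69 and DSG1, a desmosomal cadherin gene, from -4.11 to -2.5. PRSS27 and KLK6, both serine protease genes, moved from -3.74 to 0.64 and from -3.48 to 0.75. In BB537 12 of 21 cornified envelope genes still lay 2-fold or more below baseline on the labelled array, against 18 on the unlabelled array.

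BB173 showed little difference between its 2 arrays in these genes. IVL was at -6.15 on the unlabelled and -5.72 on the labelled array, SPINK7 at -7.60 and -7.07, TGM1 at -5.26 and -5.03, and 19 of 21 cornified envelope genes were 2-fold or more below baseline on each. FGFBP1 was an exception, at -4.39 and -1.97. BB269 and BB4870 had 0, 0, 0 and 2 such genes on their 4 arrays.

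**Figure D3:**
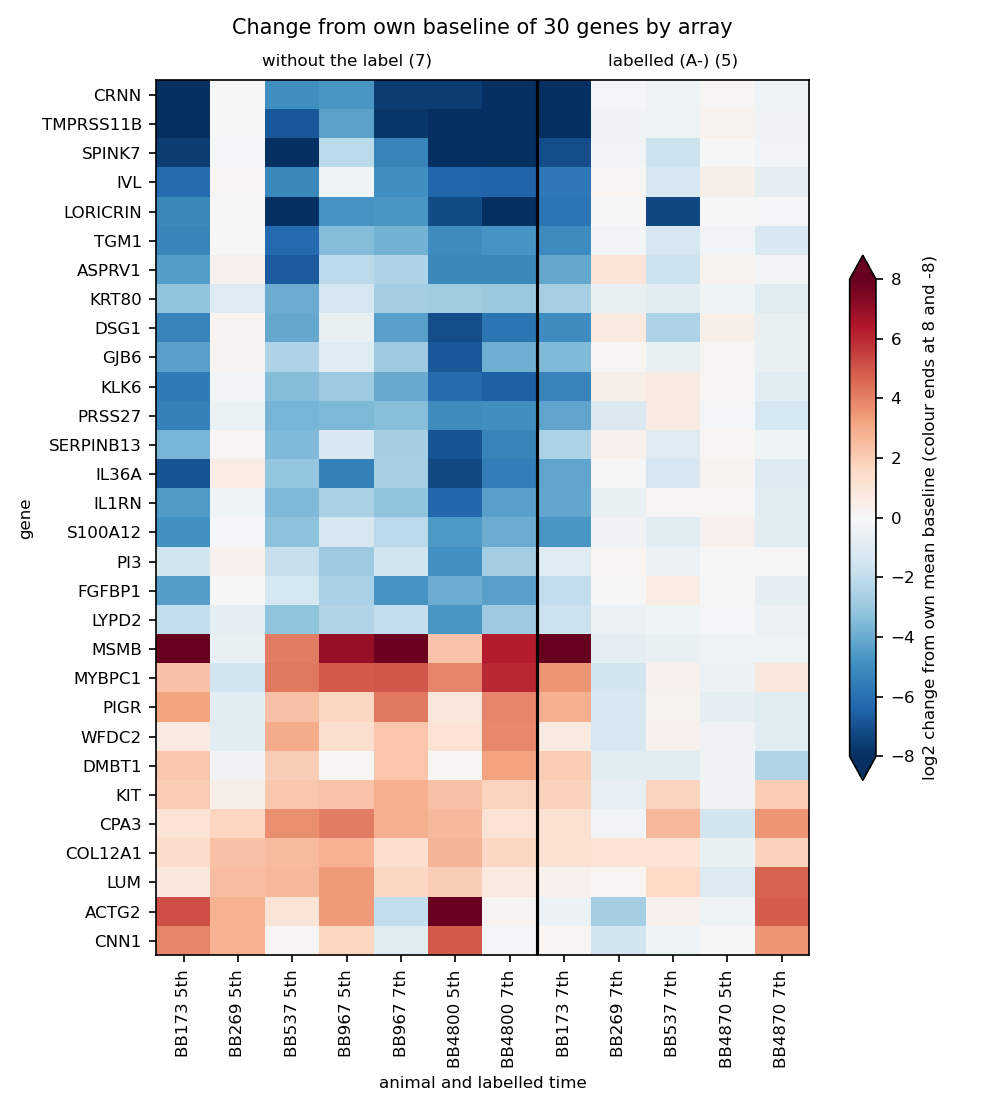
Log2 change from the own mean baseline (colour, blue lower and red higher) of 30 genes (vertical axis) on the 12 LNG arrays (horizontal axis), with the 7 unlabelled arrays left of the black line and the 5 labelled arrays right of it. The column of the labelled 7th array of BB173 resembles its unlabelled 5th array, with CRNN at -8.68 and -8.41, and the unlabelled 5th array of BB269 is pale, with CRNN at 0.02.

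Each set of arrays was also compared with baseline, and both comparisons used the same baseline samples. The unlabelled arrays came from 5 animals and the labelled from 4, and the fit counts repeated arrays of an animal as separate samples. Limma called 2182 of 31624 probe sets (6.9%) between the 7 unlabelled arrays and baseline, 990 higher and 1192 lower, and 0 (0%) between the 5 labelled arrays and baseline, with 3463 at an unadjusted p under 0.05 and a lowest adjusted p of 0.455. With the animals of dose label Low alone, 2 probe sets passed on labelled arrays, for TRIM7 and LOC717993. These counts do not show that the sets differ, since the direct comparison called none.

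The count of 2182 rested on single samples. It was 0 without animal BB173, BB537 or BB4800, 896 without BB967 and 3613 without BB269. Leaving out single arrays gave 353 without BB173, 0 without BB537, 707 without BB4800, 1413 without BB967 and 3427 without BB269 at the 5th time, 413 without BB967 and 1329 without BB4800 at the 7th, and 3539 without the labelled 5th array of BB4870. It was 6255 without the late luteal baseline of BB967 and 0 when the fit held the GAPDH measure or the stroma score, both described further on, with 1116 and 3001 at an unadjusted p under 0.05.

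Among genes, 866 of 11198 (7.73%) passed between unlabelled arrays and baseline, 379 higher (3.38%) and 487 lower (4.35%). Of 21 cornified envelope genes 15 fell, with a list median of -3.48, against a median of 0.00 over all genes. Of the 24 proteases and inhibitors 16 fell (median -2.47), and of the 29 suprabasal genes 21 (median -2.08). The medians on labelled arrays were -1.5, -0.96 and -0.98, with 0 members called by limma and 2, 2 and 3 at an unadjusted p under 0.05. Without the 5th array of BB4800 the 3 counts were 9, 9 and 16. They were 0 in each list without the 5th array of BB537, or once GAPDH or stroma was a covariate.

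CRNN fell by 5.70 ± 1.03 (SE; limma adjusted p = 0.0174) on unlabelled arrays and lay at -2.54 ± 1.18 (limma adjusted p = 0.455) on labelled arrays. TMPRSS11B fell by 6.47 ± 1.22 on unlabelled arrays, and so did LOC717850 and LOC714943, at -5.69 and -5.58, SPINK7 at -5.53, LORICRIN at -4.96, IVL at -3.98 and KLK6 at -3.99. IL36A and IL1RN, an epithelial cytokine and the antagonist of the interleukin-1 receptor, fell by 4.10 ± 0.72 and 3.41 ± 0.56 (limma adjusted p = 0.0174 for both). Of 38 cytokines and chemokines 4 fell and 1 rose. S100A12 and PI3, an antimicrobial calcium-binding protein and the elastase inhibitor elafin, were among 6 of 18 antimicrobial genes that fell, with values of -2.78 ± 0.58 and -1.99 ± 0.40.

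Several genes outside the squamous lists were higher on unlabelled arrays. MSMB, a secreted protein of mucosal glands, had changes of -0.60 to 8.44 on unlabelled arrays with a median of 6.26, and rose by 4.81 ± 1.03 (SE; limma adjusted p = 0.0225). On labelled arrays it was at -0.37, -0.37, -0.80 and -0.58 in BB4870 at both times, BB269 and BB537, and at 8.26 in BB173. Labelled BB173 was therefore as high as the unlabelled arrays, and unlabelled BB269 was as low as the labelled ones. MYBPC1, a myosin-binding protein gene, rose by 3.24 ± 0.86 on unlabelled arrays, with -1.52 in BB269 as the lowest and 6.01 in BB4800 at the 7th time as the highest. Its labelled arrays lay at -0.44, 0.83, -1.49, 0.36 and 3.54.

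MSMB and MYBPC1 belong to 9 genes that were most raised in the DMPA arm of the same series and were listed for that reason, with earlier results of these data known. In that list 3 of 9 rose on unlabelled arrays (median 1.94) and 0 passed on labelled arrays (median 0.76). The direct difference had a median of -1.5, with 9 of 9 below 0, 0 called by limma and 1 at an unadjusted p under 0.05. Of the 11 genes most lowered in the DMPA arm 10 fell on unlabelled arrays, with a median of -4.20 against -2.09 on labelled arrays. This list shares members such as CRNN and IVL with the squamous lists.

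Genes of the tissue beneath the epithelium overlapped between the sets. Of 29 extracellular matrix genes 7 rose on unlabelled arrays (median 1.71), a count of 1 without the 5th array of BB4800 and 0 without the 5th array of BB537. On labelled arrays the median was 1.22, with 0 called and 15 higher at an unadjusted p under 0.05. Over all 11198 genes 998 had such a p on labelled arrays, 375 higher and 623 lower. The direct difference of the matrix list had a median of -0.22. COL12A1, a collagen gene, rose by 2.07 ± 0.39 (limma adjusted p = 0.018) on unlabelled arrays. CTHRC1, PCOLCE2 and MAMDC2, genes of secreted matrix-associated proteins, rose by 3.16, 2.81 and 2.72, and all 7 unlabelled arrays were above baseline for each of them. Their labelled arrays were spread widely, from -0.50 to 4.81 for CTHRC1, with BB4870 at 0.19 at the 5th time and 4.81 at the 7th.

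Smooth muscle genes lay higher on unlabelled arrays in 13 of 13 cases, with a median direct difference of -1.05, 0 called and 0 at an unadjusted p under 0.05, though not at the 7th time alone, as described further on. The mean change of the list was 4.66 in BB4800, 2.58 in BB173, 1.99 in BB269, 1.66 in BB967 and 0.92 in BB537 at the unlabelled 5th time. It was 0.40 in BB4800 and -0.23 in BB967 at the unlabelled 7th time. Labelled arrays were at 0.28, -0.66, 0.85 and -0.17 in BB173, BB269, BB537 and BB4870 at its 5th time, and at 3.16 in BB4870 at its 7th. Apart from BB4870, no 7th array of any animal exceeded 0.85, whether labelled or not. The 2 baseline samples of BB269 and of BB967 differed by 2.55 and 2.07 in this list. Their gaps were 2.46 and 2.42 in the extracellular matrix list and 2.28 and 2.29 in the fibroblast list. In BB173, BB4800 and BB4870 the smooth muscle gap was 0.24, 0.06 and 0.03. ACTG2, an enteric smooth muscle actin gene, ranged from -1.95 to 7.93 on unlabelled and from -2.73 to 4.86 on labelled arrays.

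The labelled 5th and 7th arrays of BB4870 thus carried the same mark and differed strongly in connective tissue genes. LUM, the gene of the matrix proteoglycan lumican, was at -1.07 and 4.69, CPA3, a mast cell protease gene, at -1.52 and 3.56, and KIT, the mast cell growth factor receptor, at -0.27 and 2.06. The mean change of the extracellular matrix list was -0.14 and 3.10. On unlabelled arrays KIT rose by 1.90 ± 0.42 (SE; limma adjusted p = 0.0251), the 1 member of 7 mast cell genes to pass.

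Proliferation genes had a median of -0.70 on unlabelled and -0.42 on labelled arrays against baseline, and 5 of 22 fell on unlabelled arrays, a count of 0 without the 5th array of BB4800. MKI67, a marker of dividing cells, was at -2.87 to -0.24 on unlabelled arrays with a median of -1.70. On labelled arrays it was at 0.00 and -1.10 in BB4870, -0.03 in BB269, 0.13 in BB537 and -2.82 in BB173. BB173 again lay in the range of the unlabelled arrays. The direct differences were 0.49 ± 0.53 for MKI67 and 0.64 ± 0.43 for FOXM1, a transcription factor of the cell cycle, with limma adjusted p of 0.811 and 0.697.

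Interferon-stimulated genes showed the same overlap. ISG15, a ubiquitin-like interferon-induced gene, was at 1.61 and 1.08 in BB4870, -0.56 in BB269, 0.26 in BB537 and -3.16 in BB173 on labelled arrays. On unlabelled arrays it ran from -4.08 to 1.28 with a median of -2.54, the highest in BB269. The direct difference was 1.29 ± 0.87 (limma adjusted p = 0.697). Over 30 interferon response genes and restriction factors the median direct difference was 0.33, with 0 called and 1 at an unadjusted p under 0.05. On unlabelled arrays 1 of the 30 fell, the chemokine gene CXCL11, at -0.94 ± 0.21; another of its probe sets had the opposite sign in the direct comparison.

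Several lists had few members that passed, near the share over all genes of 4.35% lower and 3.38% higher. Among 15 HIV receptor and homing genes 1 fell on unlabelled arrays, CLEC7A, a fungal pattern receptor of myeloid cells, by 1.37 ± 0.38 (limma adjusted p = 0.0424). CD4 changes ran from -0.78 to 1.03 on labelled and from -0.27 to 0.84 on unlabelled arrays, and neither set was mainly higher or lower.  The estrogen receptor gene ESR1 was at -0.49 to 0.14 on labelled and -0.69 to 0.23 on unlabelled arrays. Of 23 estrogen-responsive genes 2 fell, CCND1 and TGFA, and of 25 progestin- and glucocorticoid-responsive genes 1 rose on unlabelled arrays, the glucocorticoid-induced TSC22D3, by 0.94 ± 0.26 (limma adjusted p = 0.043). TSC22D3 lay at 0.74, -0.47, 1.35, -0.51 and 0.86 on the labelled arrays of BB173, BB269, BB537 and, at its 2 times, BB4870, within the unlabelled range for 3 of the 5.

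T cell, natural killer, B and plasma cell, macrophage, blood and glycogen metabolism genes had 0 members called by limma in either comparison with baseline, with at most 3 in any direction at an unadjusted p under 0.05. Their median direct differences lay between -0.14 and 0.12. Columnar epithelium genes had a median of -0.53 in the direct comparison, with 0 called and 2 lower at an unadjusted p under 0.05. PIGR, which carries antibodies across epithelia, was at 2.86 in labelled BB173 and between -1.26 and 0.27 on the 4 other labelled arrays, against -0.88 to 4.24 on unlabelled arrays.

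Among the remaining lists, 3 of 29 cell junction genes fell on unlabelled arrays and none passed on labelled arrays, with medians of -0.87 and -0.50. Endothelial genes had like medians on both sets, at 0.83 and 0.84, with 2 of 22 that rose on unlabelled arrays and 10 at an unadjusted p under 0.05 on labelled ones. Of 17 fibroblast genes 3 rose on unlabelled arrays, and the medians were 1.24 and 1.08. One gene passed on unlabelled arrays in each of the basal keratinocyte, steroid receptor and neutrophil lists, and none did in the Langerhans cell, melanocyte and nerve, and immediate early lists.

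**Figure D4:**
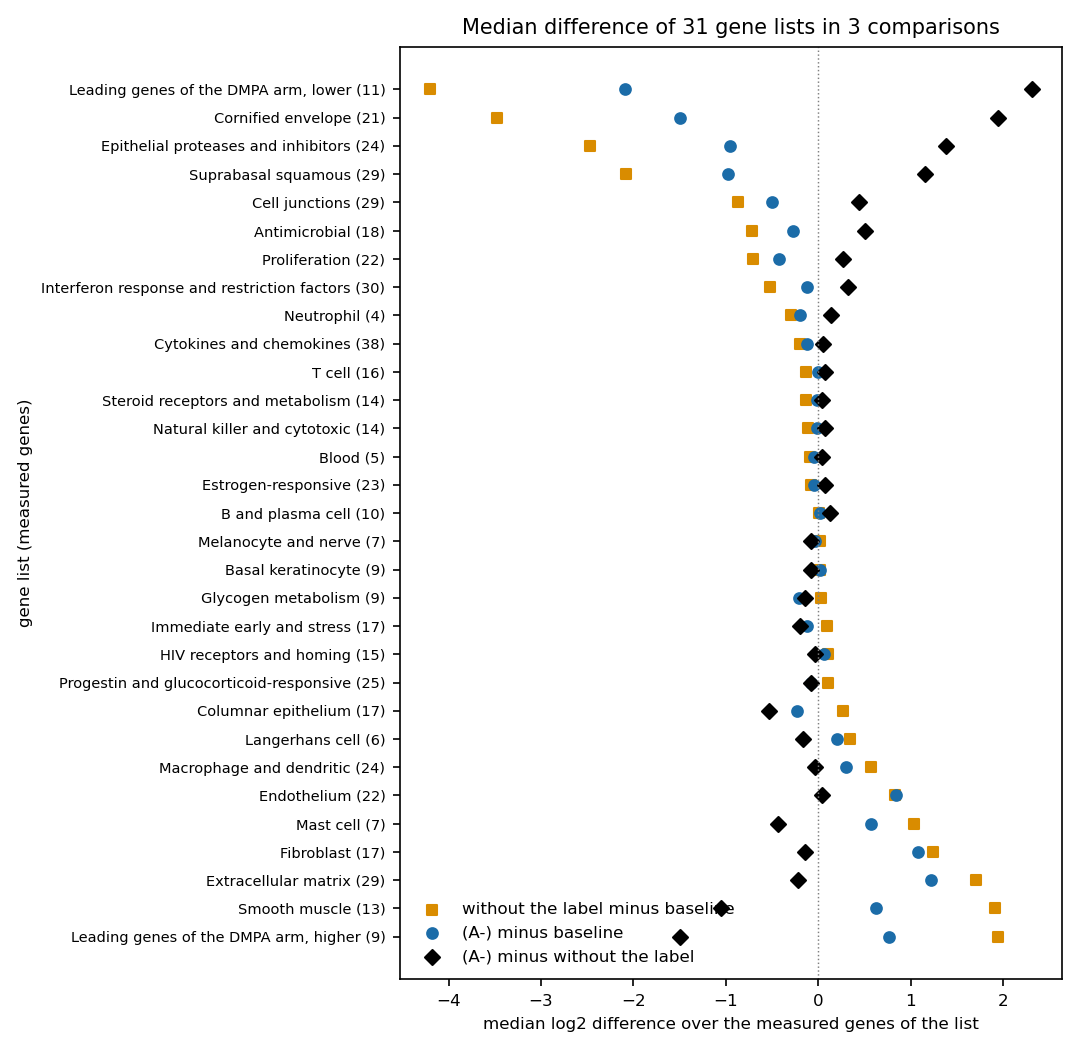
Median log2 difference (horizontal axis) of the measured genes of 31 lists (vertical axis, with the number measured) for unlabelled arrays minus baseline, labelled arrays minus baseline and labelled minus unlabelled arrays. The cornified envelope list sits at -3.48, -1.5 and 1.94, and the extracellular matrix list at 1.71, 1.22 and -0.22.

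Against baseline, the genes with the smallest p on labelled arrays were mostly not those of the squamous lists. ABCA8, a lipid transporter gene of fibroblasts, was higher on all 5 labelled arrays, at 0.86 to 3.32, and on all 7 unlabelled arrays, at 0.71 to 2.43. Its fitted differences from baseline were 1.97 ± 0.48 (limma adjusted p = 0.455) and 1.77 ± 0.42 (limma adjusted p = 0.029). TCIM and INPP4B, a phosphoinositide phosphatase gene, lay 1.60 and 1.07 above baseline on labelled arrays. LOC717443 lay 0.57 below it, at -0.57 ± 0.11, and ZFAT, ZNF407 and PRPF31 at -0.61, -0.50 and -0.39.

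Since the mark overlapped with time, the direct comparison was repeated in 3 further ways. With the 7th time as an added term, limma called 0 probe sets (0%), with a lowest adjusted p of 0.423 and 2791 at an unadjusted p under 0.05. The cornified envelope median was 2.63, with 20 of 21 values above 0. Genes with the smallest p were ASIC4 at 1.51 ± 0.30, FGFBP1 at 3.15 ± 0.70 and IFNK, an interferon of keratinocytes, at 2.38 ± 0.60 among the higher ones. NKRF, a repressor of NF-kappa-B targets, at -1.32 ± 0.26 and FAM241A at -1.65 ± 0.38 were among the lower ones.

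At the 7th time alone, where 4 labelled arrays stood against the 2 unlabelled arrays of BB967 and BB4800, limma called 0 probe sets (0%) with 3580 at an unadjusted p under 0.05. The 5th arrays stayed in this fit as a group of their own, so they bear on its differences. The lowest adjusted p, 0.0527, belonged to SLC30A2, a zinc transporter gene of secretory epithelium. Its change was 0.48, -0.29, -0.16 and 0.00 in labelled BB173, BB269, BB537 and BB4870, and 2.40 and 1.34 in unlabelled BB967 and BB4800, a fitted difference of -1.96 ± 0.27 (SE). Both unlabelled arrays lay above all labelled ones, but at the 5th time SLC30A2 was at -0.19 and -0.01 in the same 2 animals. SLC30A2 passed in the 7th-time comparison with arrays centred on their median, with quantile normalization, with 1 probe set per gene, without the brightness filter and without BB173. Leaving out BB4800 keeps BB967 alone on the unlabelled side, and the SLC30A2 difference was then -2.52. No probe set passed with the GAPDH, actin or stroma covariate, with the filter at the 60th percentile, or without BB269, BB4870 or BB537. With all 57 samples the 1 probe set that passed was of FYTTD1, not of SLC30A2. CYP4F8, a cytochrome P450 gene, had -2.14 ± 0.40, with 0.93 and 3.26 in unlabelled BB967 and BB4800.

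PIGR had a difference of -3.78 ± 1.00 at the 7th time, and 9 of 17 columnar epithelium genes were lower at an unadjusted p under 0.05, with 0 called. Over all 11198 genes 972 were lower and 136 higher at that level, with a median difference of -0.115. The cornified envelope median was 2.16, with 17 of 21 values above 0. In contrast to the comparison over both times, smooth muscle genes had a positive median of fitted differences, at 1.5, with all 13 above 0. As mean changes from baseline, labelled 7th arrays lay at 0.28, -0.66 and 0.85 in BB173, BB269 and BB537. The unlabelled 7th arrays lay at 0.40 in BB4800 and -0.23 in BB967. The labelled 7th array of BB4870, at 3.16, was the highest of the 6 arrays in that list. T cell genes had fitted differences below 0 in 16 of 16 cases, with a median of -0.45, 0 called and 3 at an unadjusted p under 0.05. Their mean change was nonetheless highest in labelled BB537, at 0.46, against 0.39 and 0.44 in unlabelled BB4800 and BB967. In labelled BB173, BB269 and BB4870 it was -0.05, -0.27 and -0.14.

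The change from the 5th to the 7th time was then compared between the 3 animals whose mark appeared and the 3 others. Limma called 0 probe sets (0%), with 709 at an unadjusted p under 0.05 and adjusted p-values near 1 throughout. With 3 animals against 3 an exact permutation test of a single value cannot go below p = 0.1, and with 4 against 2 not below 0.0667. TAF8 at -1.28 ± 0.26, FAM151B at -1.85 ± 0.39, UBE2S at 1.19 ± 0.27 and CTPS1, a CTP synthase gene, at 1.57 ± 0.40 had the smallest p. The cornified envelope median of this difference was 1.22, against -0.04 over all genes.

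The GAPDH measure of RNA quality and a measure of tissue makeup moved with the sets, and the actin measure of RNA quality moved less. The difference between the 3' and 5' control probe sets of GAPDH, which grows as RNA is shortened, was 1.77 ± 0.40 (SD, n = 5) on labelled and 2.30 ± 0.44 (SD, n = 7) on unlabelled arrays, against 1.62 ± 0.27 (SD, n = 11) at baseline. It was above the own baseline on 4 of 5 labelled and 7 of 7 unlabelled arrays. The lowest values were those of BB4870 at the 5th time, 1.2, and of BB269, 1.41 and 1.52, and these arrays also lay nearest to baseline in squamous genes. Compared between animals, other arrays did not keep this order. The 7th arrays of BB4870 and BB537 had GAPDH values of 1.98 and 1.99, which were 0.55 and 0.06 above their own baseline. Their cornified envelope means were -0.32 and -1.87. From the 5th to the 7th time GAPDH and the cornified envelope mean moved in opposite directions in every animal except BB269. In BB269 both rose. BB537 had the largest fall in GAPDH, from 2.58 to 1.99, and its cornified envelope mean went from -3.78 to -1.87. At the 7th time the change in GAPDH was 0.33 on labelled and 0.75 on unlabelled arrays (two-sided exact permutation p = 0.133, adjusted over 6 tests 0.399). The same difference for actin was 1.21 ± 0.16 (SD, n = 5) on labelled and 1.29 ± 0.15 (SD, n = 7) on unlabelled arrays. At baseline it was 1.14 ± 0.125 (SD, n = 11). Its change at the 7th time was 0.12 on labelled and 0.27 on unlabelled arrays (two-sided exact permutation p = 0.133, adjusted over 6 tests 0.399).

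The stroma score, the mean level of fibroblast and smooth muscle genes, was 9.03 ± 1.12 (SD, n = 5) on labelled, 9.98 ± 0.84 (SD, n = 7) on unlabelled arrays and 8.42 ± 0.89 (SD, n = 11) at baseline. At the 7th time alone the order was the other way, with a change of 1.14 on labelled and 0.60 on unlabelled arrays (two-sided exact permutation p = 0.733, adjusted over 6 tests 0.8). The labelled mean rested on BB4870, at 3.01, with 0.35, 0.04 and 1.19 in BB173, BB269 and BB537. The unlabelled arrays of BB4800 and BB967 were at 0.50 and 0.71. With GAPDH as a covariate, the median direct difference was 0.51 for the cornified envelope list, 0.55 for the proteases and inhibitors and 0.25 for the suprabasal list, against 1.94, 1.38 and 1.15 without it. Under the stroma covariate the 3 medians were 1.51, 1.15 and 0.86, and under the actin covariate 1.90, 1.46 and 1.23. In the GAPDH, stroma and actin fits limma called 0 probe sets between the sets, with 2872, 3325 and 2590 at an unadjusted p under 0.05. The part of RNA quality and tissue makeup in the differences was not tested further.

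**Figure D5:**
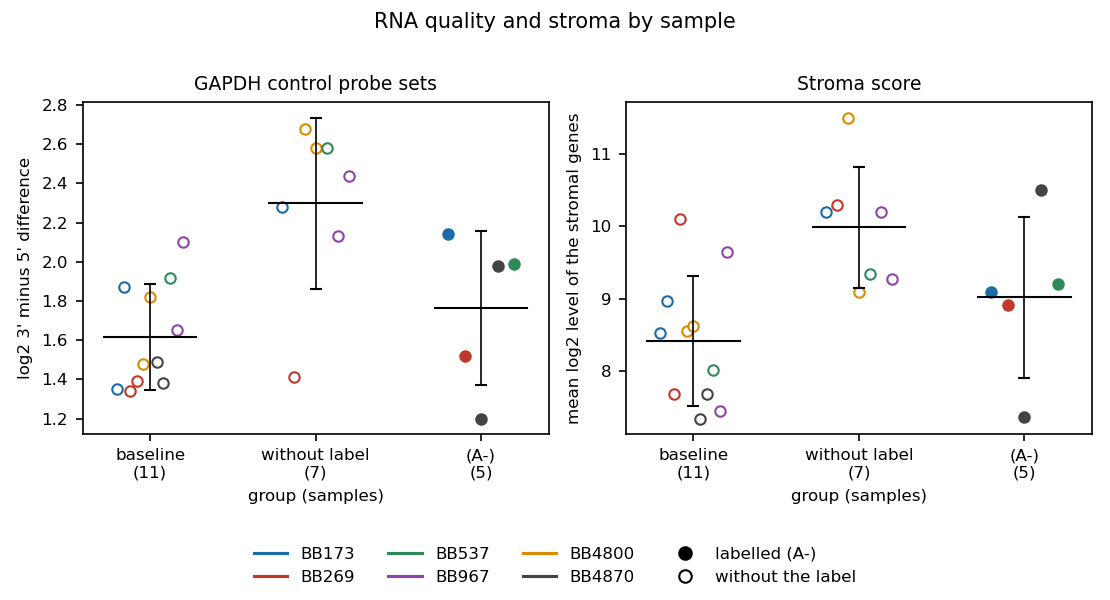
Difference between 3' and 5' GAPDH control probe sets in log2 units (left) and stroma score in mean log2 level (right) for 11 baseline samples, 7 unlabelled and 5 labelled LNG arrays; points are samples coloured by animal, horizontal bars are means and error bars SD. Means of the GAPDH measure were 1.62, 2.30 and 1.77, and those of the stroma score 8.42, 9.98 and 9.03.

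The dose label was split between the sets, with 3 labelled and 3 unlabelled arrays from animals labelled High and 2 and 4 from animals labelled Low. Within either dose label limma called 0 probe sets between labelled and unlabelled arrays, with 2652 at an unadjusted p under 0.05 in High and 709 in Low. Against baseline, unlabelled arrays of the animals labelled High gave 0, with 1651 at an unadjusted p under 0.05, and those labelled Low gave 3054.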

How the data were processed

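Each sample was a vaginal pinch biopsy whose amplified RNA was hybridised to 1 array. The authors' deposited values are log2 signals per probe set, with array medians of 6.07 to 6.25. The submitters' processing notes name affy and Partek. Background correction, normalization and summarization are not given in the sources used here, and the number of arrays, not a read depth, limits the precision.

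The array holds 52865 probe sets. Without its 158 controls, the 31624 whose mean over 57 samples exceeded the 40th percentile entered the fits. Of all probe sets 24969 pair with 1 gene symbol, 361 with several and 27535 with none. A gene is represented by its brightest kept probe set. Differences were fitted with limma 3.58.1 in R 4.3.3 (lmFit, eBayes) on 23 samples of the LNG animals, blocked by animal, and called at a Benjamini-Hochberg adjusted p under 0.05. The scripts were tested on simulated data. A p-value measures the spread between these samples that is left after the animal block. Repeated arrays of an animal within a set count as separate samples, and an animal's own response to treatment has no term.

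The arrays followed the mark in the labels, but the gene lists and genes were chosen with earlier results of these data known. Named were the 10 genes per direction with the smallest p in the direct comparison, 5 per direction in each other comparison, up to 3 per list, and fixed genes. 31 lists with 502 measured genes of 762 were used. The animal pairs the samples, and fits without it or with it as a random block, other filters, scalings, covariates and left-out samples were alternatives. DMPA arrays entered only the filter and 1 alternative.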

Additional observations from a re-analysis of the deposited data

Results flagged for a closer look

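In 12 of 108 groups checked, the extreme array stood farther from its nearest neighbour than the 95% limit of Dixon's test, where chance gives about 1 in 20. The unlabelled 5th array of BB4800 accounted for 5 of them. Its mean change was -1.08 over basal keratinocyte genes, -3.81 over cell junction genes, -1.40 over natural killer and cytotoxic genes, -1.30 over B and plasma cell genes and 1.85 over melanocyte and nerve genes.

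The labelled 7th array of BB173 stood apart from the 4 other labelled arrays in 4 measures. These were cytokines and chemokines at -0.87, neutrophil genes at -1.43, the genes most raised in the DMPA arm at 3.36, and LYPD2 at -1.71. Of the 4 measured neutrophil genes only 1 was 2-fold or more below baseline on this array, S100A12 at -4.63. The 2 baseline samples of BB173 differed by 1.28 in the neutrophil list and by 1.3 in the cytokine and chemokine list. The unlabelled 5th array of the same animal was high in steroid receptor and metabolism genes, at 0.21. TNC was low on the unlabelled 7th array of BB967, at -0.10, and ZNF331 on the unlabelled 5th array of BB269, at -0.38.

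The genes most lowered in the DMPA arm had a 7th minus 5th change of 0.05 in BB173, 0.17 in BB269 and 2.88 in BB537, where the mark appeared. The mean of 1.03 rested on BB537. In the others the change was -0.05 in BB4800, -0.69 in BB4870 and -1.77 in BB967, so the signs were opposite but 3 of the 6 values were close to 0. This difference between the groups of animals was not tested.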

How the results depend on the processing

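The direct comparison gave 0 probe sets under all alternatives except array weights, with 4; labelled arrays against baseline gave 0 except 2 in animals labelled Low, a split added after seeing the data. Unlabelled arrays against baseline, 2182 probe sets, gave 1267 without the brightness filter, 1106 with 1 probe set per gene, 4212 with all 57 samples, 989 with the actin covariate, 0 with the GAPDH covariate, 0 with the stroma score, 7274 with array weights, 3557 with baseline phases as separate groups, and, added later, 0 in animals labelled High and 6255 without the late luteal baseline of BB967. The animal pairs the samples: with a random replicate block the count was 5193 and without the block 4016, and the direct comparison stayed at 0 in both. Leaving out arrays or animals gave 0 to 3613 for this count and 0 to 0 for the direct comparison. At the 7th time alone, 3 probe sets passed without the filter, and 1 each with median centring, quantile normalization, 1 probe set per gene and all 57 samples; leaving out animals gave 0 to 3, where without BB967 or BB4800 the unlabelled side is 1 array, assumed to vary like the others. The cause of these differences was not tested. Direct differences changed sign for MKI67, to -0.34, with the GAPDH covariate, for PGR, to -0.16, without the replicate block, and for FOXM1, to -0.00292, in animals labelled High; MKI67 against baseline on unlabelled arrays became 0.0316 with the GAPDH covariate. The other 2214 of 2217 direct values of single genes kept their direction and their side of the threshold. For unlabelled arrays against baseline, 452 of 1614 values of single genes lost their call. Of 1116 list medians 91 changed sign, while those of the cornified envelope, protease and suprabasal lists ranged from 0.51 to 2.83, 0.55 to 2.22 and 0.25 to 1.83. Few animals, 1 mark shared with time and no later untreated controls limit every comparison.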
